A study of Mus musculus with 12 samples.

Results

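The neurotrophin receptors and ligands followed here are the receptor tyrosine kinase genes Ntrk2 and Ntrk3, the receptor gene Ngfr, the sorting receptor gene Sort1, and the ligand genes Bdnf and Ntf3. They were chosen by symbol with earlier results of these data known, and all 6 were found among the 25674 genes of the deposited count table. RNA had been sequenced from spiral ganglion neurons of mouse E14.5 embryos, with 100 sorted cells per sample and 6 samples per genotype. The samples called control carried Neurod1Cre, a bacterial artificial chromosome transgene that drives Cre from the Neurod1 gene, together with the Rosa26tdTOM reporter, which labels cells red once Cre has acted. The samples called ISL1CKO carried the same transgene and reporter and were Isl1loxP/loxP, so that Cre acts on Isl1 in cells that have expressed Neurod1. The lines were on a mixed C57BL/6/sv129 background, each sample held both inner ears of 1 embryo of either sex, and the embryos came from several litters that the labels do not tie to samples. A label tag numbers the samples as technical replicates, while the design text calls them biological replicates. They were treated as separate embryos.

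Neurotrophins are secreted growth factors that keep sensory neurons alive while they innervate their targets. BDNF binds the kinase receptor TrkB, encoded by Ntrk2, and NT-3, encoded by Ntf3, binds TrkC, encoded by Ntrk3. In the cochlea both ligands are known mainly from the sensory epithelium, and both receptors from the spiral ganglion neurons, which carry sound information to the brain. The p75 receptor, encoded by Ngfr, binds all mature neurotrophins and, together with sortilin, encoded by Sort1, their uncleaved precursors.

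Library totals lay between 11895603 and 13857480 counts, and 3 counts, used as the detection floor, corresponded to 0.216 to 0.252 CPM (counts scaled to a common library size). Levels of the targeted gene Isl1 overlapped between the groups, at 1170.7 to 1777 CPM in controls and 1050.5 to 1589 CPM in ISL1CKO libraries, with a log2 fold change of -0.15 ± 0.11 (SE, adjusted p by edgeR = 0.460). Whether the floxed stretch was removed cannot be read from counts of the whole gene, so each direction below is that of the libraries labelled ISL1CKO relative to controls. The libraries labelled ISL1CKO 2, 3 and 5 held Xist, at 62.9 to 132 CPM, together with Y-linked transcripts, at a mean of 35.7 to 87.3 CPM, although each was labelled as a single embryo. Results are therefore also given without these 3 libraries. The summed level of 10 neuronal marker genes overlapped between the groups, at 12127 to 14674 CPM in controls and 12437 to 15624 CPM in ISL1CKO libraries, although within that list Gata3 and Nefl fell (log2 fold changes of -2.71 and -1.38) and Neurod1 and Stmn2 rose (0.88 and 0.54). Mitochondrial genes took 0.845% to 1.02% of the counts in ISL1CKO libraries and 1.05% to 1.65% in controls, without overlap, and the part of this difference in the results below was not tested.

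Of the 6 genes, 5 passed the filter on low counts and 3 of these fell, namely Ntrk2, Ntrk3 and Ngfr, while 0 rose. Among all 14813 genes tested, 10.2% were called in either direction at an adjusted p under 0.05 by the quasi-likelihood test of edgeR (Benjamini-Hochberg adjusted), 5.19% were lower and 5.01% higher. For the same 3 genes every ISL1CKO library lay below every control library, which was the case for 3.65% of all genes tested, while 6.78% did not overlap in either direction. Sort1 and Bdnf did not pass the test, and Ntf3 was close to absent from the libraries. Because the 6 genes were chosen with earlier results known, their counts are a description and not independent evidence.

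Ntrk2 (ENSMUSG00000055254, GRCm38 chromosome 13, 58806569 to 59133970, plus strand) was the gene with the largest difference among the 5 tested. Its control replicates 1 to 6 measured 332, 495, 317, 339, 391 and 388 CPM. The ISL1CKO replicates 1 to 6 measured 93.9, 54.9, 65.6, 29.6, 29.0 and 50.2 CPM. Every ISL1CKO library was thus well below the lowest control, and replicate 1 was the highest of its group. The means were 377 ± 65.4 CPM in controls and 53.9 ± 24.4 CPM in ISL1CKO libraries (SD, n = 6), which is a log2 fold change of -2.81 ± 0.25 (SE, 95% interval -3.35 to -2.26, adjusted p by edgeR = 3.98e-06). In ISL1CKO libraries the fitted level was 14.3% of that in controls. Without ISL1CKO 2, 3 and 5 the log2 fold change was -2.71 (adjusted p by edgeR = 5.67e-04). In samples of pooled cells, fewer Ntrk2-expressing cells and less Ntrk2 RNA per cell cannot be told apart. The annotation lists 7 protein-coding transcripts of Ntrk2, with coding sequences for 466 to 821 amino acids. TrkB is made both as a full kinase receptor and as truncated forms that lack the kinase domain. Which of these transcripts codes for which form was not checked. The deposited counts sum over these transcripts and do not separate the forms. Ntrk2 and Isl1 both lie on chromosome 13, with 57.2 Mb between them.

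The upstream sequences of the called receptor genes are shown because ISL1 is a LIM homeodomain protein that binds DNA. Both come from RefSeq on GRCm38.p6, and for each the bases before the outermost annotated gene start are printed, read 5′ to 3′ on the gene's strand. Capitals mark matches on either strand to TAAT, the core bound by many homeodomain proteins, to CTAATG, a longer sequence that contains it, or to CAGATG, an E-box form of the kind bound by NEUROD1. The Ntrk2 stretch is chr13:58806319-58806568 on the plus strand and the Ngfr stretch is chr11:95587736-95587948 on the minus strand.
Ntrk2: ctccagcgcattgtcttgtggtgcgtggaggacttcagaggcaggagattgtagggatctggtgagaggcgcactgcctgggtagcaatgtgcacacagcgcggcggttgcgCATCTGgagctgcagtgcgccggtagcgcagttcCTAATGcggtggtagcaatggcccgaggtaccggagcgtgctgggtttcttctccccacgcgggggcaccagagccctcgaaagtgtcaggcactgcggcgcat
Ngfr: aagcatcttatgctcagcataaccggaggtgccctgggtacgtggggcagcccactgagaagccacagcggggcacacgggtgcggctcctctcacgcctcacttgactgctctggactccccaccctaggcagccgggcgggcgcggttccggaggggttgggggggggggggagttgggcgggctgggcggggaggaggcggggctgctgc
The Ntrk2 sequence holds 1 match to CTAATG, beginning 104 bases before the RefSeq start, and 1 match to CAGATG, present as its reverse complement, 138 bases before it. The Ngfr sequence has a GC content of 70.9%, against 62.8% for that of Ntrk2, and holds 0 matches to the 3 motifs. Over all 32851 RefSeq windows of 300 bases, from 250 before to 50 after a start, 7.36% held CTAATG, 17.2% held CAGATG and 58.0% held TAAT. Of the 6 genes, 4 matched the table, with 11 windows, 7 of them for Bdnf, and CTAATG was found in the Ntrk2 window alone. TAAT was also present in 5 of the 7 Bdnf windows and 1 of the 2 Ntf3 windows, and CAGATG in 1 Bdnf window and 1 Ntf3 window, and neither of these genes was called. Ntrk3 and Sort1 had no window there. These matches are descriptions of the letters and say nothing about binding.

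Ntrk3 (ENSMUSG00000059146, GRCm38 chromosome 7, 78175959 to 78738012, minus strand), the NT-3 receptor gene, fell as well. Its level in control replicates 1 to 6 was 300.4, 339, 286, 241, 226 and 266 CPM. In ISL1CKO replicates 1 to 6 it was 132, 126, 119, 95.1, 64.3 and 91.1 CPM. The groups did not overlap, and ISL1CKO 5, which was also lowest for Ntrk2, was the lowest library. Means of 276 ± 41.3 and 105 ± 25.9 CPM (SD, n = 6) gave a log2 fold change of -1.40 ± 0.16 (SE, 95% interval -1.74 to -1.06, adjusted p by edgeR = 3.97e-05), or 37.9% of the control level. Without ISL1CKO 2, 3 and 5 the value was -1.38 (adjusted p by edgeR = 5.84e-04). Ntrk3 has 6 annotated protein-coding transcripts, the longest coding for 864 amino acids, and TrkC too has truncated forms that these counts do not separate.

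Ngfr (ENSMUSG00000000120, GRCm38 chromosome 11, 95568818 to 95587735, minus strand) encodes p75, a receptor of the tumour necrosis factor receptor superfamily that modulates Trk signalling and can also signal on its own. The control replicates 1 to 6 measured 249, 216, 174, 268, 168 and 251 CPM. In ISL1CKO replicates 1 to 6 its level was 146, 127, 56.7, 110.2, 91.5 and 98.6 CPM. The lowest control, replicate 5, was above the highest ISL1CKO library, replicate 1, so the groups were separate, by 168 against 146 CPM. Ngfr averaged 221 ± 42.1 CPM in controls and 105 ± 30.8 CPM in ISL1CKO libraries (SD, n = 6), which is a log2 fold change of -1.07 ± 0.19 (SE, 95% interval -1.48 to -0.67, adjusted p by edgeR = 0.00177), or 47.5% of the control level. Without ISL1CKO 2, 3 and 5 it was -0.91 (adjusted p by edgeR = 0.0154).

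Since Schwann cell precursors and satellite glia also express Ngfr, their markers were read in the same libraries. Of 8 such genes, 5 were tested and 0 were called by edgeR, with 0 at an unadjusted p under 0.05. Their summed level overlapped between the groups, at 31.9 to 185 CPM in controls and 34.8 to 250.5 CPM in ISL1CKO libraries. The defining marker Sox10 was at most 7.13 CPM in controls and at most 13.6 CPM in ISL1CKO libraries. With this summed level as a covariate the log2 fold change of Ngfr was -1.16 (adjusted p by edgeR = 0.00134), that of Ntrk2 -2.80 (adjusted p by edgeR = 1.46e-05) and that of Ntrk3 -1.36 (adjusted p by edgeR = 1.23e-04). In controls Fabp7 and Mbp, at means of 49.7 and 24.0 CPM, made up most of this sum, and Sox10 averaged 2.32 CPM. The fits with this covariate adjust for that sum alone, and the part of glia in the results was not tested. Of 8 mesenchyme markers 4 were tested, Tbx18 and Col3a1 rose (log2 fold changes of 5.18 and 2.40) and 0 fell, with summed levels of 38.4 to 84.3 CPM in controls and 70.3 to 121 CPM in ISL1CKO libraries. The mesenchyme markers did not all move alike. Pou3f4 averaged 52.9 ± 16.4 CPM in controls and 27.4 ± 13.4 CPM in ISL1CKO libraries (SD, n = 6), and its log2 fold change of -0.95 was not called (adjusted p by edgeR = 0.143). Twist1, below the filter, was at 0.250 to 2.37 CPM in controls and 0 to 0.0776 CPM in ISL1CKO libraries. Higher in ISL1CKO libraries but not called was Col1a2, at means of 1.30 and 4.67 CPM (log2 fold change 1.83, adjusted p by edgeR = 0.0602). Prrx1, below the filter, averaged 0.337 CPM in controls and 4.72 CPM in ISL1CKO libraries. Tbx18 averaged 1.09 and 39.5 CPM, a large part of the difference in the sum. The macrophage markers, of which 0 of 8 were called, ranged from 1.48 to 347 CPM in controls and from 0.656 to 729.8 CPM in ISL1CKO libraries. The part of mesenchyme in the results was not tested.

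**Figure D1:**
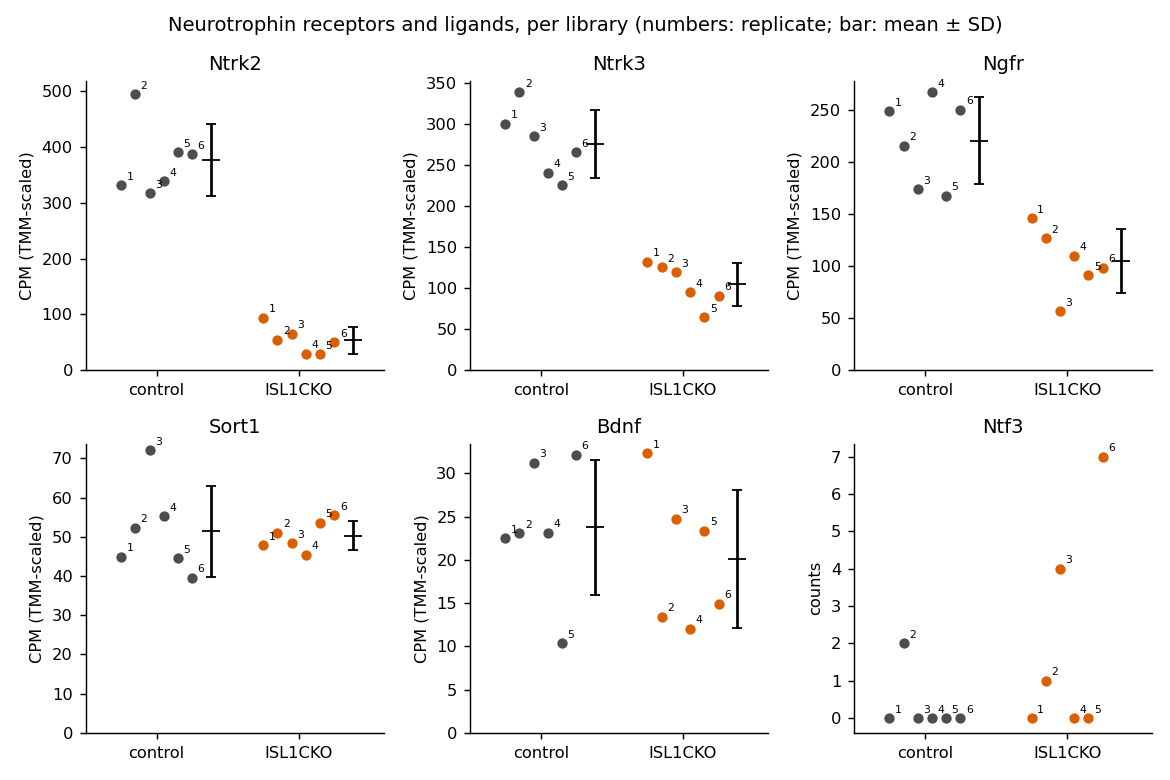
Level in each library for the 6 genes, in TMM-scaled CPM (counts for Ntf3), with control libraries in grey, ISL1CKO libraries in orange, the replicate number beside each point and bars for the mean ± SD. Ntrk2, Ntrk3 and Ngfr do not overlap between the groups, while Sort1 and Bdnf do, and no library exceeds 7 counts of Ntf3.

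The sorting receptor gene and the ligand genes did not separate the genotypes. Sort1 (ENSMUSG00000068747, GRCm38 chromosome 3, 108284082 to 108361511, plus strand) measured 44.9, 52.3, 72.1, 55.2, 44.5 and 39.5 CPM in control replicates 1 to 6. ISL1CKO replicates 1 to 6 gave 47.9, 51.1, 48.3, 45.4, 53.5 and 55.5 CPM, all within the range of the controls. Its log2 fold change was -0.03 ± 0.14 (SE, adjusted p by edgeR = 0.921), and the 95% interval of -0.33 to 0.26 runs from 79.6% to 120.1% of the control level. Control 3 alone lay above 60 CPM, and without it the log2 fold change was 0.08 (adjusted p by edgeR = 0.746).

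Bdnf (ENSMUSG00000048482, GRCm38 chromosome 2, 109674700 to 109727007, plus strand) was present at a low level in the sorted neurons of both genotypes. It measured 22.5, 23.1, 31.2, 23.1, 10.4 and 32.1 CPM in control replicates 1 to 6, from 131 to 439 counts. In ISL1CKO replicates 1 to 6 it measured 32.3, 13.4, 24.8, 12.0, 23.3 and 14.9 CPM, from 161 to 408 counts. Both groups spread over about the same range, with ISL1CKO 1 as high as the highest control. The means of 23.7 ± 7.83 and 20.1 ± 7.97 CPM (SD, n = 6) gave a log2 fold change of -0.24 ± 0.29 (SE, adjusted p by edgeR = 0.681). The 95% interval of -0.86 to 0.38 reaches from 55.2% to 130.4% of the control level, so smaller changes of Bdnf could not be resolved with these samples. Bdnf is transcribed from several promoters, and the counts do not separate them.

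Ntf3 (ENSMUSG00000049107, GRCm38 chromosome 6, 126101412 to 126166910, minus strand) had 0, 2, 0, 0, 0 and 0 counts in control replicates 1 to 6 and 0, 1, 4, 0, 0 and 7 counts in ISL1CKO replicates 1 to 6. Controls were all under the floor of 3 counts, and of the ISL1CKO libraries replicates 3 and 6 exceeded it. Ntf3 did not pass the filter on low counts, and no fold change is given because both group means lay under the floor. At this depth Ntf3 was not detectable in most of the libraries.

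**Figure D2:**
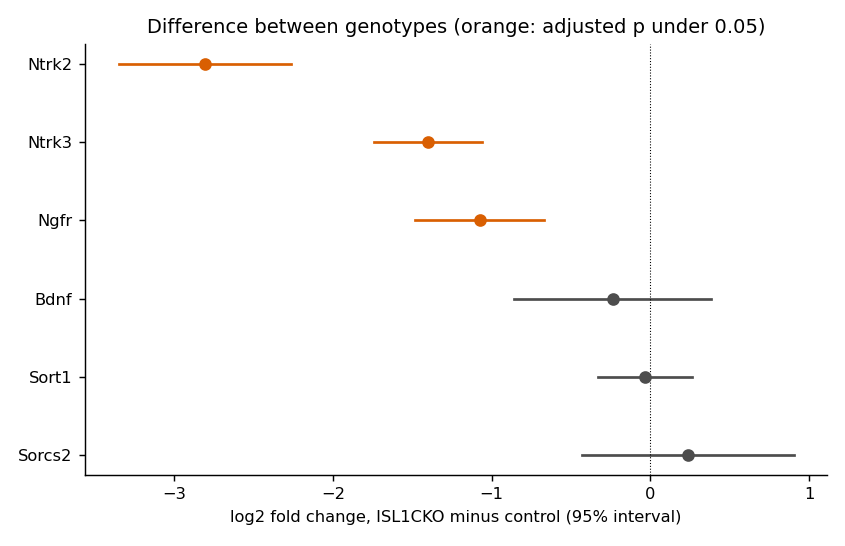
Log2 fold change between ISL1CKO and control libraries with its 95% interval from edgeR, for the 5 tested genes of the family and for Sorcs2; orange marks an adjusted p under 0.05. The intervals of Ntrk2, Ntrk3 and Ngfr lie below 0, and those of Bdnf, Sort1 and Sorcs2 include 0. Sorcs1, Sorcs3 and Sorl1 are not shown.

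Levels of different genes were compared per kilobase of merged exons. In controls Ngfr was the highest of the 6 genes, at 64.1 ± 12.2 CPM per kilobase, followed by Ntrk2 at 19.5 ± 3.39, Ntrk3 at 9.16 ± 1.37, Sort1 at 6.80 ± 1.53, Bdnf at 3.82 ± 1.26 and Ntf3 (SD, n = 6). The libraries of Ngfr and Ntrk2, and those of Ntrk2 and Ntrk3, did not overlap on this scale, whereas Ntrk3 and Sort1 did, at 7.47 to 11.2 and 5.22 to 9.52 CPM per kilobase. Among 14793 tested genes with a length, the control level of Ngfr stood at the 94.3 percentile, that of Ntrk2 at 80.6, that of Ntrk3 at 65.0, that of Sort1 at 58.8 and that of Bdnf at 45.7. The receptor genes were thus above the middle of the tested range, and Bdnf was just below it. In ISL1CKO libraries Ngfr was still first, at 30.5 ± 8.95 CPM per kilobase, and Sort1 came second at 6.64 ± 0.499. Ntrk3 at 3.47 ± 0.857, Bdnf at 3.24 ± 1.28 and Ntrk2 at 2.79 ± 1.26 followed with overlapping libraries (SD, n = 6). Ntrk2 thus stood next below Ngfr in controls, and within the spread of Ntrk3 and Bdnf in ISL1CKO libraries. The length matters for Ntrk2, whose merged exons span 19.3 kb and whose longest transcript spans 8.74 kb. With the longest transcript as length the order of the control means did not change, but the Ntrk2 libraries, at 36.3 to 56.7 CPM per kilobase, then overlapped those of Ngfr at 48.7 to 77.7. Those of Ntrk3, at 11.4 to 17.2 CPM per kilobase, no longer overlapped those of Sort1 at 5.78 to 10.5. On that scale the Ntrk2 level in ISL1CKO libraries was 6.16 ± 2.78 CPM per kilobase, above the 5.31 ± 1.31 of Ntrk3 (SD, n = 6), again with overlapping libraries.

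**Figure D3:**
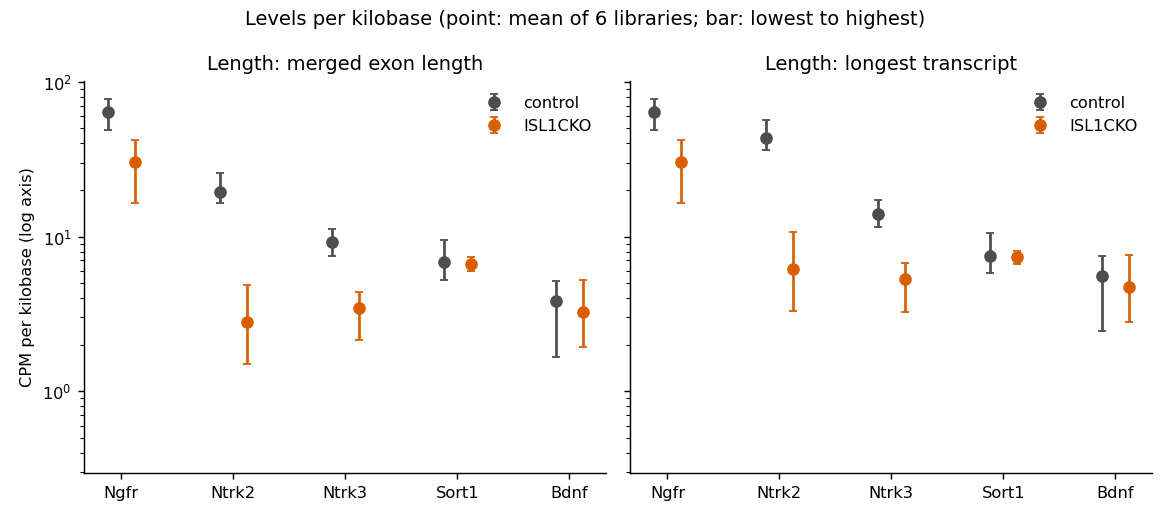
Level per kilobase on a log axis for Ngfr, Ntrk2, Ntrk3, Sort1 and Bdnf, with merged exon length on the left and the longest transcript on the right; points are means of 6 libraries and bars run from the lowest to the highest library. Ntrk2 and Ntrk3 stand above Bdnf in controls and overlap it in ISL1CKO libraries.

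The balance of Ntrk2 and Ntrk3 was taken in each library. Per kilobase, the ratio of Ntrk2 to Ntrk3 in control replicates 1 to 6 was 1.73, 2.29, 1.74, 2.20, 2.71 and 2.28. In ISL1CKO replicates 1 to 6 it was 1.11, 0.682, 0.860, 0.486, 0.706 and 0.862. The groups did not overlap, and with these merged exon lengths the ratio was above 1 in 6 of 6 controls and in 1 of 6 ISL1CKO libraries, replicate 1. The mean ratio was 2.16 ± 0.375 in controls and 0.784 ± 0.211 in ISL1CKO libraries (SD, n = 6). Because it is taken within a library, this ratio does not depend on the scaling of the libraries, but its absolute size depends on the lengths used. With the longest transcripts its mean was 3.11 in controls and 1.13 in ISL1CKO libraries, and it was above 1 in 6 of 6 controls and in 4 of 6 ISL1CKO libraries. With no length correction it was above 1 in 6 of 6 controls and in 0 of 6 ISL1CKO libraries. As the ratio was formed from genes already known to differ, it is given as a description with no test.

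**Figure D4:**
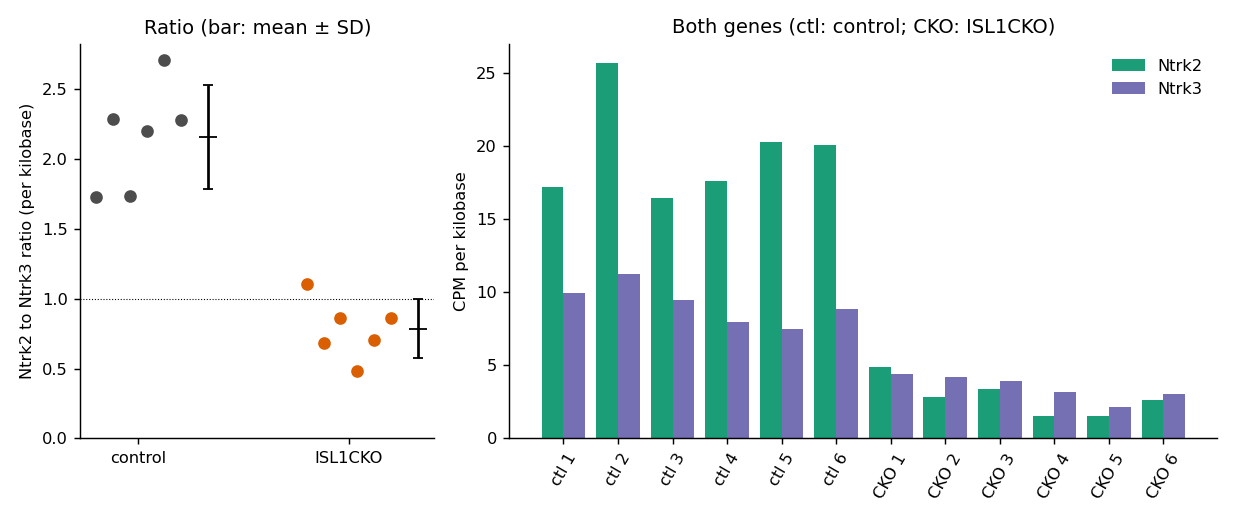
Left, the ratio of Ntrk2 to Ntrk3 per kilobase in each library with the mean ± SD and a dotted line at 1; right, the level of both genes in CPM per kilobase for each control (ctl) and ISL1CKO (CKO) library. With these merged exon lengths the ratio is above 1 in all 6 controls and in 1 of 6 ISL1CKO libraries.

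Relatives of the sorting receptor were examined as well. Of the 4 analysed, Sorcs1, Sorcs2, Sorcs3 and Sorl1, all were tested and 0 were called in edgeR's test at an adjusted p under 0.05. DESeq2 also called 0, and at an unadjusted p under 0.05 edgeR had 1, Sorcs3 (adjusted p = 0.114). Sorcs2, which encodes a sortilin relative that binds p75, averaged 13.2 ± 4.63 and 15.5 ± 7.47 CPM in control and ISL1CKO libraries (SD, n = 6; adjusted p by edgeR = 0.702). Sorcs1, Sorcs3 and Sorl1, further genes of the sortilin family, averaged under 3 CPM in each group. The ligand gene Ntf5 was not among the genes of the deposited count table and was not analysed.

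Several annotated transcripts lie within the introns of Ntrk2 and Ntrk3, and they were looked up because the use of strand in the counting is not given in the sources used here. None shares an exonic base with the 2 receptor genes. Of 4 within Ntrk2, C630044B11Rik summed to 143 counts over the controls and 21 over the ISL1CKO libraries, Gm47423 to 158 and 40, 4930415C11Rik to 71 and 12, and Gm34245 to 25 and 2, and all 4 were below the filter. Within Ntrk3 the antisense gene Gm9885 passed it and fell, from 10.3 ± 3.95 to 2.01 ± 1.08 CPM (SD, n = 6), which is a log2 fold change of -2.35 ± 0.40 (SE, adjusted p by edgeR = 0.00118). Gm44607, also within Ntrk3, summed to 167 and 50 counts and was not called (log2 fold change -1.82, adjusted p by edgeR = 0.200), and 4921513I08Rik, with 10 and 2 counts, was below the filter. For all of these transcripts the ISL1CKO sum was the lower one, while single libraries of both groups overlapped. For Sort1 and Bdnf an antisense gene overlaps 338 and 896 exonic bases, but these, Gm12523 and Gm45346, had at most 7 counts in either group.

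Genes that act with the receptors were followed in 7 lists written for this purpose, with 120 genes, of which 106 were tested. They held 13 called lower and 3 called higher, or 15.1% of those tested, against 10.2% of all genes. The lists were written with earlier results of these data known, so these shares are a description and not independent evidence. Their median log2 fold change was -0.04, against 0.0045 over all genes tested.

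Among Trk adaptor genes, 3 of 20 tested fell and 0 rose, a share called of 15% against 10.2% of all genes. Crk, an adaptor that links Trk receptors to the GTPase Rap1, went from 85.9 ± 7.07 to 62.7 ± 4.30 CPM (SD, n = 6; log2 fold change -0.45, adjusted p by edgeR = 0.00377). Shc4, of the Shc adaptor family, went from 26.1 ± 8.93 to 11.3 ± 4.12 CPM (SD, n = 6; log2 fold change -1.21, adjusted p by edgeR = 0.0126). The third, Shc2, had a log2 fold change of -0.39. Without ISL1CKO 2, 3 and 5 the log2 fold change of Crk was -0.43 and its call was lost with fewer samples (adjusted p by edgeR = 0.0601), and 1 adaptor gene remained called.

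Among the kinase cascade genes 3 of 28 fell and 0 rose, a share of 10.7% that is near that of all genes. Mapk3, which encodes the kinase ERK1, measured 184 to 205 CPM in controls and 82.0 to 133 CPM in ISL1CKO libraries, without overlap (log2 fold change -0.84, adjusted p by edgeR = 1.90e-04). Rps6ka3, which encodes the ERK-activated kinase RSK2, went from 76.4 ± 18.8 to 22.1 ± 11.3 CPM (SD, n = 6; log2 fold change -1.79, adjusted p by edgeR = 0.00161). Its relative Rps6ka2 was the third, with a log2 fold change of -0.94.

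Of the genes of p75 signalling, 2 of 22 tested fell and 1 rose, a share called of 13.6% against 10.2% of all genes. Bex3, whose product associates with the death domain of p75, went from 508 ± 44.4 to 388 ± 45.8 CPM (SD, n = 6; log2 fold change -0.39, adjusted p by edgeR = 0.00771), with overlapping groups. Adam17, which encodes a protease that sheds the p75 ectodomain, rose from 20.1 ± 2.50 to 32.3 ± 6.11 CPM (SD, n = 6; log2 fold change 0.68, adjusted p by edgeR = 0.0114). Psenen, a subunit gene of the gamma-secretase complex that cleaves the remaining membrane stub, had a log2 fold change of -0.46. Without ISL1CKO 2, 3 and 5 the log2 fold change of Adam17 was 0.69 and its call was lost with fewer samples (adjusted p by edgeR = 0.0646), and 1 gene of this list remained called.

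Of the processing and release genes 7 were tested, 1 fell and 2 rose, a share called of 42.9% in this short list against 10.2% of all genes. Pcsk2, which encodes a convertase that cleaves prohormones in secretory granules, fell from 232 ± 17.6 to 119 ± 27.6 CPM (SD, n = 6; log2 fold change -0.97, adjusted p by edgeR = 1.45e-04). Cpe, which encodes carboxypeptidase E, rose from 521 ± 35.9 to 685 ± 49.4 CPM (SD, n = 6; log2 fold change 0.39, adjusted p by edgeR = 0.00129), and both groups were separate. Plat, the gene of tissue plasminogen activator, had a log2 fold change of 0.97. Of 10 receptor trafficking genes 0 were called by edgeR, with 1 at an unadjusted p under 0.05, and DESeq2 called 1.

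Genes that respond to neurotrophin and other growth factor signals had the lowest median, -0.90 over 15 tested genes. Of these 4 fell and 0 rose, or 26.7% called against 10.2% of all genes. The genes of this list did not all move alike. Arc, Junb and Egr1 had log2 fold changes of 1.97, 1.09 and 0.52 and were not called (adjusted p by edgeR = 0.286, 0.172 and 0.799). Arc and Egr1 were low, at means of 0.932 and 1.79 CPM in controls. Dusp4 and Homer1, at 0.06 and -0.02, were not called either. Nor were Spry1, Vgf, Spry2 and Dusp6, which were lower, at -1.83, -1.79, -1.09 and -0.90 (adjusted p by edgeR = 0.100, 0.0962, 0.0605 and 0.176). At an unadjusted p under 0.05 edgeR had 9 of the 15 genes. Etv5 and Etv1 encode ETS transcription factors whose expression depends on ERK signalling in several tissues. Etv5 went from 127 ± 25.8 to 48.1 ± 14.7 CPM (SD, n = 6; log2 fold change -1.41, adjusted p by edgeR = 2.00e-04), and Etv1 from 29.8 ± 4.85 to 8.09 ± 4.14 CPM (SD, n = 6; log2 fold change -1.88, adjusted p by edgeR = 6.20e-04). All 6 ISL1CKO libraries were below all controls for both. The other 2 called genes, named after their values were seen, were Etv4, a close relative of Etv5 and Etv1, at a log2 fold change of -2.27, and Spred2, an inhibitor of the ERK pathway, at -1.10. Other growth factor receptors feed the same genes, and which receptor they follow was not tested.

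**Figure D5:**
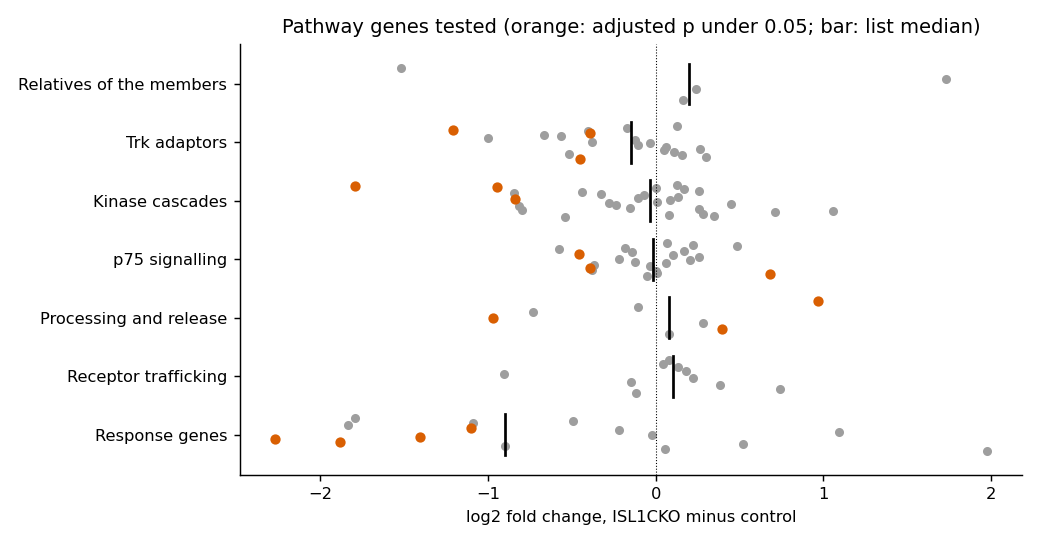
Log2 fold change between ISL1CKO and control libraries for each tested gene of the 7 lists; orange points have an adjusted p under 0.05 and the bar is the list median. The response genes have the lowest median, at -0.90, and the other medians lie between -0.15 and 0.20.

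Genes whose levels followed those of a family gene from library to library were listed as a description. Group means were subtracted first, so that the difference between the group means did not enter. Pearson's r was taken over the 12 libraries, which all genes share, for genes that averaged 3 or more in log2 CPM. The 3 highest were picked from all such genes, so a high r can come from the picking alone. No r was tested. A genotype difference that varied in size among the ISL1CKO libraries was not removed by this, so r and a fall between genotypes need not be independent. For Ntrk2 the closest were Acsl1 (r = 0.96), Pdzrn3 (0.95) and Unc5b (0.90). All of these, and Ntrk2 itself, were highest among the ISL1CKO libraries in replicate 1. For Ntrk3 they were the neurofilament gene Nefl (0.91), Iqcb1 (0.89) and the neurofilament gene Nefm (0.89). Ngfr was followed most closely by Hk1, Pcdhb7 and Nop2 (r of 0.91 for each), Sort1 by Zbed4 (0.91), Tent4a (0.89) and Msi1 (0.89), and Bdnf by Med17 (0.90), Zdhhc12 (0.87) and Atp2b4 (0.86). Of the genes closest to Ntrk2 and Ntrk3, Acsl1 also fell between genotypes, with a log2 fold change of -2.93 (adjusted p by edgeR = 5.81e-07), and so did Unc5b, at -2.21 (0.00170), Nefl, at -1.38 (3.17e-04), and Nefm, at -1.92 (2.63e-04, each an adjusted p by edgeR). Pdzrn3 and Iqcb1, and the genes closest to Ngfr, Sort1 and Bdnf, were not called.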

How the data were processed

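Gene counts of sorted neurons were analysed in 12 samples. The authors deposited raw counts per Ensembl gene in 1 table of 25674 genes, in which the smallest gene total is 10. The submitters' processing notes name cutadapt 1.18, Bowtie 1.2.2, STAR 2.7.0c, featureCounts and the build GRCm38.p6; the strand setting and annotation are not given in the sources used here. Each column was assigned to the sample with its group name and number. Symbols, given to 25620 identifiers, coordinates and exon lengths come from GENCODE M21 on GRCm38.

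Counts were tested with edgeR 4.0.16 under R 4.3.3: filterByExpr (minimum count 10), TMM scaling, robust quasi-likelihood F-test of genotype with no covariate over all 12 samples, Benjamini-Hochberg adjustment over 14813 genes, threshold 0.05. SE is the absolute log2 fold change divided by the square root of F, and 95% intervals use the t distribution. CPM values are TMM-scaled. On simulated data of 14813 genes the test recovered 72.8% of 92 genes changed by 2 on the log2 scale and 49.1% of 108 changed by 1, with 4.76% false calls. This is a far smaller share of changed genes than the 10.2% called in the data, where the rates may differ. DESeq2 1.42.0 and limma-voom (limma 3.58.1) were alternatives, with other scalings, filters, covariates, a replicate block and libraries left out.

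The 6 genes and all lists were chosen with earlier results of these data known. Named were the 6 genes, the relatives analysed, the 2 genes of each list with the smallest p if called, and the 3 genes most like each. The other called genes of short lists (Shc2, Rps6ka2, Psenen, Plat, Etv4, Spred2) were named after their values were seen. So were the uncalled response genes (Arc, Junb, Egr1, Dusp4, Homer1, Spry1, Vgf, Spry2, Dusp6), the intronic transcripts and single markers. The smallest chi-square per degree of freedom between 2 libraries was 21.3, so no library appears more than once. Reads amplified by PCR are not independent molecules, so the floor covers counting error only. Marker lists covered neurons, Schwann and satellite glia, macrophages, mesenchyme, hair cells (0 of 3 tested were called), cochlear epithelium (0 of 1), erythroid cells (0 of 1) and endothelium (0 tested). Some genes of the lists are not reported here.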

Additional observations from a re-analysis of the deposited data

How the results depend on the processing

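Ntrk2, Ntrk3 and Ngfr kept their direction and their call in each of the 23 alternatives run, with log2 fold changes of -3.04 to -2.68, -1.48 to -1.29 and -1.20 to -0.91, and their highest adjusted p, 5.67e-04, 5.84e-04 and 0.0154, came without ISL1CKO 2, 3 and 5. Bdnf and Sort1 were called in 0 of 23. Sort1, whose value is near 0, changed sign with the glial marker covariate (0.0022, adjusted p = 0.995) and ran from -0.099 to 0.082 with 1 library left out. Without ISL1CKO 2, 3 and 5 the number of genes called fell from 1511 to 767, adaptor genes from 3 to 1 and p75 signalling genes from 3 to 1, with fewer samples in the fit. The DESeq2 Wald test raised kinase cascade genes from 3 to 5, trafficking genes from 0 to 1 and response genes from 4 to 7; the cause was not tested. Sorcs1 reversed without ISL1CKO 2, 3 and 5 (-0.90) and ran from -0.42 to 1.76 with 1 library left out, and Sorcs2 ran from -0.036 to 0.41. Sorcs3 was called in 1 alternative, without control 1 (2.46, adjusted p = 0.0267). The Ntrk2 to Ntrk3 ratio was 3.11 and 1.13 in control and ISL1CKO libraries with the longest transcripts, and 1.38 and 0.501 with no length correction, by construction of the scale. With the replicate block Ntrk2 was -2.91 (adjusted p by edgeR = 1.36e-04), Ntrk3 -1.43 and Ngfr -1.11, and 1450 genes were called. Same-numbered samples correlated at -0.056 to 0.152, with 2 of 6 closest to their own number. The numbers thus gave no sign of pairing, and whether samples share a litter was not tested.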
